A study of Canis lupus familiaris with 186 samples.

Results

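Fat cells are recognised in a tissue's mRNA by a small group of genes, and 7 of them were followed through the canine osteosarcomas of the DOG2 dataset: FABP4, ADIPOQ, PLIN1, LEP, CIDEC, LPL and PPARG. They were chosen by name, and each had 1 row among the 37952 genes of the table, so 7 of 37952 genes are described. Each of 186 pet dogs gave 1 primary appendicular tumor, biopsied before any treatment, with 93 dogs in the trial COTC021 and 93 in COTC022. The dogs varied in age, breed and sex, and all went on to amputation and adjuvant carboplatin, with or without rapamycin. The study divided the dogs by K-means on an immune gene signature, GS-1, into 58 favorable prognosis (FP) and 128 poor prognosis (PP) tumors, 29 FP in each trial, and it followed disease free interval (DFI, 143 events) and overall survival (OSv, 124 events). None of the 7 genes is among the genes listed for GS-1 or for the second signature, GS-2, but the clusters were made from the same libraries, so immune genes differ between them by construction.

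White adipocytes store triglyceride in a single large droplet and release it as fatty acids. PPARG is the nuclear receptor that drives their differentiation and maintains the program. LPL, on the capillary wall, frees fatty acids from circulating lipoproteins for uptake, and FABP4 carries them inside the cell. PLIN1 coats the droplet and gates lipolysis, CIDEC fuses small droplets into large ones, and ADIPOQ and LEP encode the secreted hormones adiponectin and leptin. ADIPOQ, PLIN1, LEP and CIDEC were taken as the members most restricted to fat and are called the core fat genes here. FABP4 is also made by capillary endothelium and by macrophages, LPL by muscle and macrophages, and PPARG by macrophages and several mesenchymal cells. Bone marrow and the soft tissue around a long bone both hold adipocytes. In a bulk tumor, more cells of a type and more mRNA per cell cannot be told apart.

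Total counts ranged from 6587637 to 27420866 per library, with a median of 10797172. In 50 libraries, set apart by a doubled separator in the deposited column names and called the deeper libraries here, the median total was 19440471, against 9851691 in the other 136, although the deepest single library was among the other 136. The deeper libraries held 13 FP and 37 PP tumors, and 13305 of 30041 genes (44.3%) differed between the library groups in limma at an adjusted p under 0.05, 5.08% being higher in the deeper ones. Of the 7 genes, PPARG alone was called, higher in the deeper libraries by 0.34 on the log2 scale (adjusted p = 0.0453). The osteoblast transcription factor RUNX2 reached at least 10 counts in 186 of 186 tumors and alkaline phosphatase (ALPL) in 186 of 186. The more bone-restricted markers reached it in fewer, IBSP in 182 and SP7 and BGLAP in 177 each, so the bone tumor label was matched by every listed marker in most tumors but not in all. Levels below are CPM, counts scaled to the library total, which take no account of transcript length, so levels are compared between tumors and not between genes.

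The core fat genes were near the floor in most tumors and high in a few. ADIPOQ (chromosome 34, 19582218 to 19584037 of GSD_1.0) ran from 0 through a median of 0.122 to 158.5 CPM, and 69 of 186 libraries held 0 counts of it. It reached at least 10 counts in 37 tumors (19.9%). The droplet coat gene PLIN1 (chromosome 3, 53145820 to 53159427) ran from 0 through 0.631 to 120.4 CPM and reached 10 counts in 80 tumors. LEP (chromosome 14, 7975126 to 7979538) ran from 0 through 0.261 to 6.53 CPM and reached 10 counts in 49 tumors. CIDEC (chromosome 20, 8456276 to 8471982) was seen least often, with 0, 0.105 and 64.5 CPM as its lowest, median and highest values and 10 counts in 23 tumors. Each of the 4 was at 0 in tumors of both clusters and of both trials, so the groups overlapped throughout.

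FABP4 (chromosome 29, 29223638 to 29228357) was present more widely, and over the widest range of the members that passed the filter. Its lowest, median and highest levels were 0, 2.89 and 1099.6 CPM, and 131 of 186 tumors (70.4%) held at least 10 counts. LPL (chromosome 25, 37256141 to 37280964) was detected in all 186 tumors, from 4.18 through 92.8 to 815.1 CPM. PPARG (chromosome 20, 6208181 to 6281750) was also detected in all 186, from 1.44 through 10.3 to 68.0 CPM. Neither LPL nor PPARG was ever absent, including in the tumors that held no ADIPOQ.

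**Figure D1:**
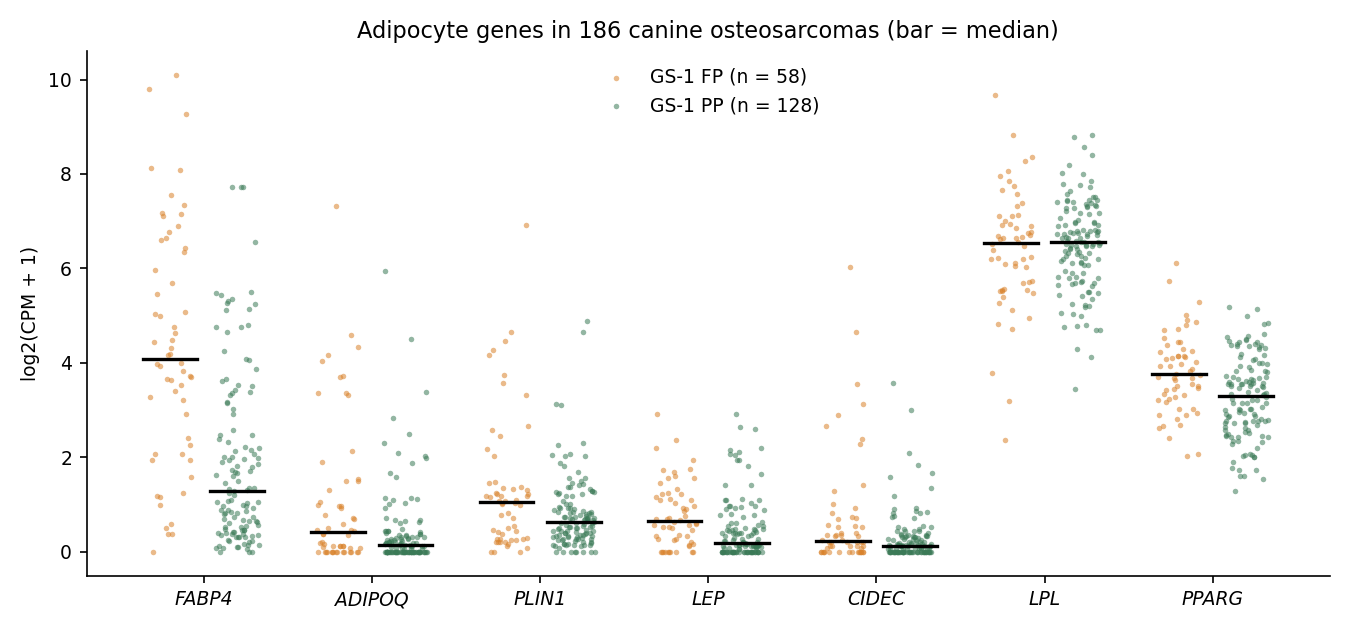
Level of each of the 7 genes in every tumor as log2(CPM + 1), with GS-1 FP (58 tumors) in orange and GS-1 PP (128 tumors) in green and a black bar at each median. The FABP4 median stands at 4.08 in FP and 1.29 in PP, while the LPL medians are 6.54 and 6.55.

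The core fat mRNA was concentrated in few animals. The 10 highest tumors held 77.2% of the ADIPOQ summed over the 186 tumors in CPM, 76.3% of the CIDEC and 63.4% of the PLIN1, and 1 tumor alone held 35.1% of the ADIPOQ. The 10 highest tumors held 63.0% of the FABP4, but 34.0% of the LEP, 19.3% of the LPL and 16.7% of the PPARG. Of the 10 tumors highest in ADIPOQ, 9 were also among the 10 highest in PLIN1, 9 among those in CIDEC and 7 among those in FABP4. With LEP the overlap was 4 of 10, with LPL 3 and with PPARG 2. ADIPOQ, PLIN1 and CIDEC thus peaked in largely the same dogs, and LEP, LPL and PPARG mostly peaked elsewhere.

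The tumor of dog 0615 of COTC022, an FP tumor, was the richest in fat mRNA, with 158.5 CPM of ADIPOQ, 120.4 of PLIN1, 64.5 of CIDEC and 4.17 of LEP. It was also the highest of all in LPL (815.1 CPM) and held 885.3 CPM of FABP4. The next was dog 0705 of COTC021, a PP tumor, with 60.2 CPM of ADIPOQ and 28.5 of PLIN1 but LPL (89.6 CPM) and PPARG (9.11 CPM) just under the medians of all tumors. Dog 0106 of COTC022 held the most FABP4, 1099.6 CPM, with 16.9 CPM of ADIPOQ. The ratio of FABP4 to ADIPOQ was 5.59 in dog 0615, 3.47 in dog 0705 and 65.0 in dog 0106, so the genes were not in 1 fixed proportion even among the richest tumors. FABP4 was also present where ADIPOQ and CIDEC were not. In the 33 tumors with 0 counts of both ADIPOQ and CIDEC, FABP4 had a lowest, median and highest level of 0, 1.44 and 185.8 CPM, and 7 of them exceeded 10 CPM. PLIN1 and LEP could be present in this set. Its highest tumor in FABP4, dog 0603 of COTC021, held 1.53 CPM of PLIN1.

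**Figure D2:**
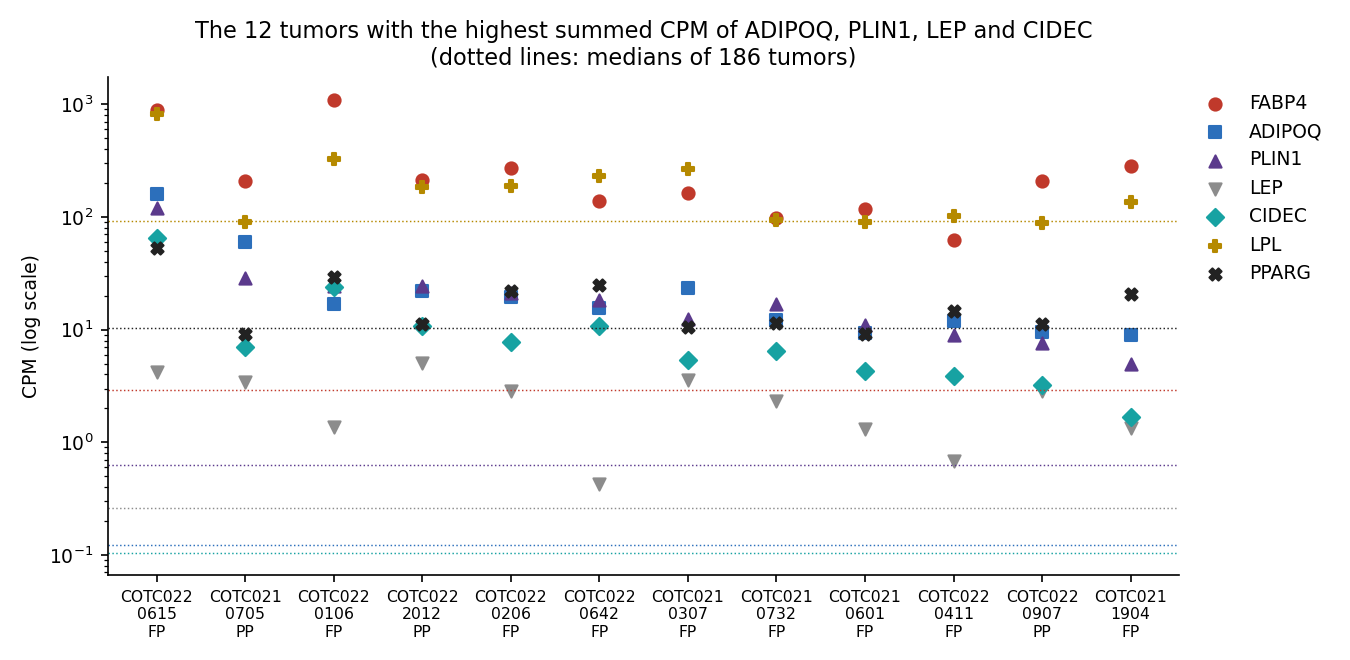
CPM on a log scale of the 7 genes in the 12 tumors with the highest summed CPM of ADIPOQ, PLIN1, LEP and CIDEC, ordered from the highest and named by trial, dog and GS-1 cluster, with dotted lines at the medians of all 186 tumors. All 12 lie above the medians for ADIPOQ, PLIN1, LEP, CIDEC and FABP4, while LPL and PPARG lie on both sides of theirs.

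Fat signal, defined as at least 10 counts of both ADIPOQ and PLIN1, was present in 30 of 186 tumors (16.1%, exact Clopper-Pearson 95% interval 11.2 to 22.2, which covers counting error only). The share followed the threshold closely. It was 37.6% at 3 counts of both genes and 9.68% at 30 counts. A count threshold also depends on library depth. At 1.52 CPM of both genes, which is 10 counts in the smallest library, 21 tumors (11.3%) passed. These were 11 of 58 FP and 10 of 128 PP tumors (two-sided Fisher's exact test, p = 0.0427). In 12 tumors (6.45%) all 4 core genes reached 10 counts. Each trial had it in 15 of 93 tumors (two-sided Fisher's exact test, p = 1). In FP tumors 15 of 58 (25.9%) held fat signal, and in PP tumors 15 of 128 (11.7%), an odds ratio of 2.63 (two-sided Fisher's exact test, p = 0.0188). The p adjusted over the cluster and trial comparisons was 0.0377, and 0.0565 when the comparison of library groups, 10 of 50 against 20 of 136 (p = 0.377), was counted with them. Within COTC022 the shares were 27.6% of FP and 10.9% of PP tumors (Fisher's exact p = 0.0658), and within COTC021 they were 24.1% and 12.5% (Fisher's exact p = 0.223). Within the library groups they were 30.8% and 16.2% in the deeper libraries (p = 0.420) and 24.4% and 9.89% in the others (p = 0.0376).

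The comparison of the GS-1 clusters asked which genes accompany the immune-rich, favorable state. FABP4 was far higher in FP tumors. Its lowest, median and highest levels were 0, 15.9 and 1099.6 CPM in FP and 0, 1.45 and 211.1 CPM in PP, so the ranges overlapped although the FP median lay above the upper quartile of PP (6.72 CPM). The log2 fold change was 3.26 with a standard error of 0.44 (limma-voom with the trial as a term, adjusted p = 1.77e-10). It was 2.83 in edgeR's quasi-likelihood fit and 2.82 in DESeq2. PPARG was higher by 0.54 on the log2 scale (standard error 0.14, limma adjusted p = 0.00123), with medians of 12.5 CPM in FP and 8.84 in PP. Its ranges, 3.09 to 68.0 CPM in FP and 1.44 to 35.1 in PP, overlapped widely. LPL had a median of 92.4 CPM in FP and 92.8 in PP, with a log2 difference of -0.12 (standard error 0.17, limma adjusted p = 0.621) that took the other sign, 0.09, in edgeR and in DESeq2. Only these 3 genes passed the filter on low counts, and 2 of the 3 were called, both higher in FP. Over all 13422 genes tested 37.9% were called, and 18.7% of all genes were called higher in FP, so calls are common in this comparison.

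The other 4 genes could be fitted only with no filter on low counts, among 30041 genes of which 21.7% were called, 11.4% as higher in FP. ADIPOQ was higher in FP by 1.40 on the log2 scale (standard error 0.40, limma adjusted p = 0.00441), LEP by 1.14 (standard error 0.32, adjusted p = 0.00359) and PLIN1 by 0.83 (standard error 0.30, adjusted p = 0.0333). CIDEC, at 0.85 (standard error 0.33), was not called (limma adjusted p = 0.0546). The calls of these scarce genes changed with the fit and with the dogs used. Without the dogs 0615 and 0705 the PLIN1 difference was 0.73 (adjusted p = 0.0513). In edgeR, where 28.3% of genes were called and 12.6% were called higher, CIDEC was called at 2.31 (adjusted p = 1.45e-06) and LEP was not, at 0.69 (adjusted p = 0.129). Neither trial alone gave a call for any of the 4, with PLIN1 at 0.77 in COTC021 and 0.93 in COTC022. In those fits 11.6% and 10.0% of all genes were called, beside 21.7% over all dogs. Within the deeper libraries, where 6.46% of genes were called, LEP was called (1.92, adjusted p = 0.0326) and CIDEC stood at 0.07. Among the other libraries, where 14.4% were called, ADIPOQ (1.42, adjusted p = 0.0170) and CIDEC (1.03, adjusted p = 0.0435) were called. Each set held fewer dogs, and the part of set size in these calls was not tested.

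Within trials and library groups FABP4 was called each time, with log2 fold changes in the fits with no filter of 3.80 in COTC022, 2.66 in COTC021, 3.14 in the 136 other libraries and 3.61 in the deeper 50. PPARG was called in COTC022 (0.75, adjusted p = 0.00788) and in the other libraries (0.69), and missed the threshold in COTC021 (0.34, adjusted p = 0.287) and in the deeper libraries (0.46, adjusted p = 0.453). Tests of the difference itself, as an interaction of cluster with trial or with library group, called 0 of the 7 genes in limma, and 0.0% of all 30041 genes, so the count is nothing particular to these genes. At an unadjusted p under 0.05 it was 0 of 7 in both, beside 3.11% of all genes for the trial and 6.6% for the library group. For the trial itself, 0 of the 3 filtered genes were called in limma, edgeR or DESeq2, beside 0.0149%, 0.805% and 0.857% of all genes. At an unadjusted p under 0.05 the count was 0 in limma, 1 in edgeR and 1 in DESeq2, where LPL was 0.34 higher in COTC022 (p = 0.0204), beside 10.8%, 13.8% and 14.4% of all genes.

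**Figure D3:**
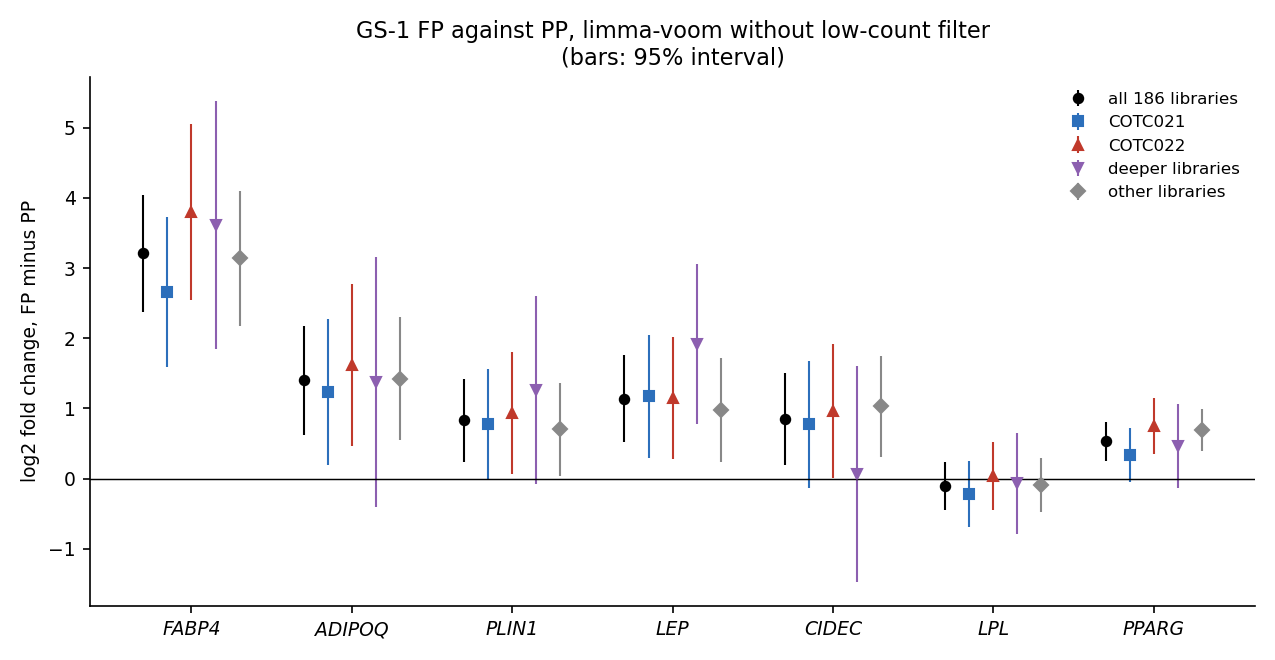
Log2 fold change between GS-1 FP and PP (FP minus PP) for each of the 7 genes in limma-voom with no filter on low counts, for all 186 libraries, each trial and each library group, with bars for the 95% interval of a normal distribution. FABP4 lies above 0 in every set, from 2.66 to 3.80, and LPL lies between -0.22 and 0.04.

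Beside the 7, lists of genes that adipocytes use were counted, each in the same limma fit. These counts are to be read against the 37.9% of all genes that were called and the 18.7% called higher in FP, and no list was compared with other genes by a test. Among transcription factors of fat, 2 of 7 tested genes were higher in FP and 0 lower. These were CEBPA (log2 fold change 0.99, adjusted p = 7.97e-12) and CEBPD (0.85, adjusted p = 0.000187), partners of PPARG in adipocyte differentiation that myeloid cells also use. CEBPB (0.23, adjusted p = 0.0791) and EBF2 (0.42, adjusted p = 0.258) did not pass. Of 8 tested genes of the droplet coat and lipolysis, 2 were higher, the triglyceride lipase PNPLA2 (0.67) and the general droplet coat protein PLIN2 (0.58), and 0 lower. PLIN4, a droplet protein of fat and muscle, had 0.86 (standard error 0.38, adjusted p = 0.0589), and the hormone-sensitive lipase LIPE had 0.22 (adjusted p = 0.0576).

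Of 13 tested genes of triglyceride and fatty acid synthesis, 2 were higher and 4 lower in FP. Beside them, 37.9% of all genes were called and 18.7% were called higher. DGAT2, which completes triglyceride, was higher by 1.02 (adjusted p = 0.000271) and LPIN1 by 0.38. The fatty acid synthase FASN was lower, at -0.38 (adjusted p = 0.00011), as were its regulator SREBF1, at -0.46, and ACACA, at -0.34, which makes the malonyl-CoA it uses, together with DGAT1, at -0.33. Of 11 uptake and transport genes 3 were higher and 3 lower. The fatty acid receptor CD36 was higher by 0.72 (adjusted p = 0.000902) and the caveolar protein CAV1 by 0.63, and ANGPTL4, an inhibitor of LPL, was lower at -0.73 (adjusted p = 0.000459), as was the lipoprotein receptor VLDLR at -0.43. GPIHBP1, which tethers LPL to capillaries, had -0.19 (adjusted p = 0.60). Of 7 adipokines and receptors, the complement protease CFD (adipsin) was higher by 2.36 (adjusted p = 3.89e-11) and IRS1 lower at -0.48, while the insulin receptor INSR (-0.30, adjusted p = 0.0511) and the adiponectin receptor ADIPOR2 (-0.16, adjusted p = 0.0727) did not pass. Of the thermogenic genes 2 were tested, and DIO2 was higher (0.72, adjusted p = 0.0442). In the FABP family, FABP5, a macrophage and epidermal form, was higher by 0.67 (adjusted p = 0.000201) and the muscle form FABP3 had -0.41 (adjusted p = 0.0726). The median log2 fold change was 0.23 for the transcription list, 0.18 for droplet genes, 0.02 for synthesis, -0.08 for uptake and -0.16 for adipokines, beside -0.03 over all genes tested.

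Marker lists of other cell types were counted in the same fit, again beside 37.9% of all genes called. Of 7 macrophage markers 6 were higher in FP, and their summed level ran from 388.8 through 1121.3 to 4293.4 CPM in FP and from 76.2 through 571.1 to 1760.6 in PP. Of 12 endothelial markers 5 were higher, led by TEK (0.97), and 0 lower, with median sums of 874.1 CPM in FP and 646.2 in PP. Of 6 markers of soft connective tissue 4 were higher, with median sums of 1145.0 and 672.3 CPM, and 3 of 3 tested T cell markers were higher. Of 5 osteoblast markers 4 were lower in FP, as were 3 of 4 cartilage and 2 of 4 pericyte markers, and 0 of 7 skeletal muscle markers passed in either direction. No marker of these lists had a median of 0. Of 5 red cell markers, 0 passed the filter and 4 had a median of 0. Some listed markers are also in signatures that the paper derived from genes differing between clusters of these same dogs. These are PI16, MFAP5, ABCA8, CD3E, CD2, CD6, COL2A1 and the skeletal muscle markers, so their counts are not independent of that work. The part of each cell type in the FABP4 difference was not tested by these counts.

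How FABP4 related to fat, vessels and macrophages was measured over the 186 dogs with scores, each the mean z-score of log2(CPM + 1) over a marker list. The core fat score used ADIPOQ, PLIN1, LEP and CIDEC, the vessel score 12 endothelial markers and the macrophage score 7 markers. LEP followed the other core genes weakly, with rho of 0.24, 0.13 and 0.14 with ADIPOQ, PLIN1 and CIDEC (r 0.43, 0.38 and 0.37). The tumor highest in LEP, dog 1012 of COTC022, had 0 CPM of ADIPOQ and CIDEC but a core fat score of 0.58. A raised score can thus rest on LEP. FABP4 rose with all 3 scores. With the core fat score Spearman's rho was 0.45 and Pearson's r 0.64, with the macrophage score rho was 0.50 and r 0.50, and with the vessel score rho was 0.31 and r 0.28. In permutation tests with 100000 resamples, p for rho was 1e-05 in each, the smallest these resamples can give, and the value adjusted over the 35 correlations with scores was 4.37e-05. Without the 2 dogs farthest from the median of each score, r was 0.61, 0.50 and 0.27, respectively.

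Each relation held its direction inside every set. With the core fat score, rho was 0.42 and 0.47 in COTC021 and COTC022, 0.64 and 0.36 in the deeper and the other libraries, and 0.49 and 0.33 in FP and PP. With the macrophage score it was 0.42 and 0.57 in the trials, 0.56 and 0.48 in the library groups, and 0.27 in FP and 0.34 in PP. With the vessel score it was 0.37 and 0.28 in the trials, 0.53 and 0.21 in the library groups, and 0.27 and 0.20 in the clusters. The relation to macrophages was therefore lower inside each cluster than over all dogs. Markers of a single list also differed. Over the 186 dogs, rho of FABP4 was 0.56 with MRC1, 0.54 with CD163 and 0.52 with AIF1, but 0.18 with CSF1R and -0.04 with CD68, all macrophage genes. Among endothelial genes it was 0.47 with TEK and 0.12 with TIE1.

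**Figure D4:**
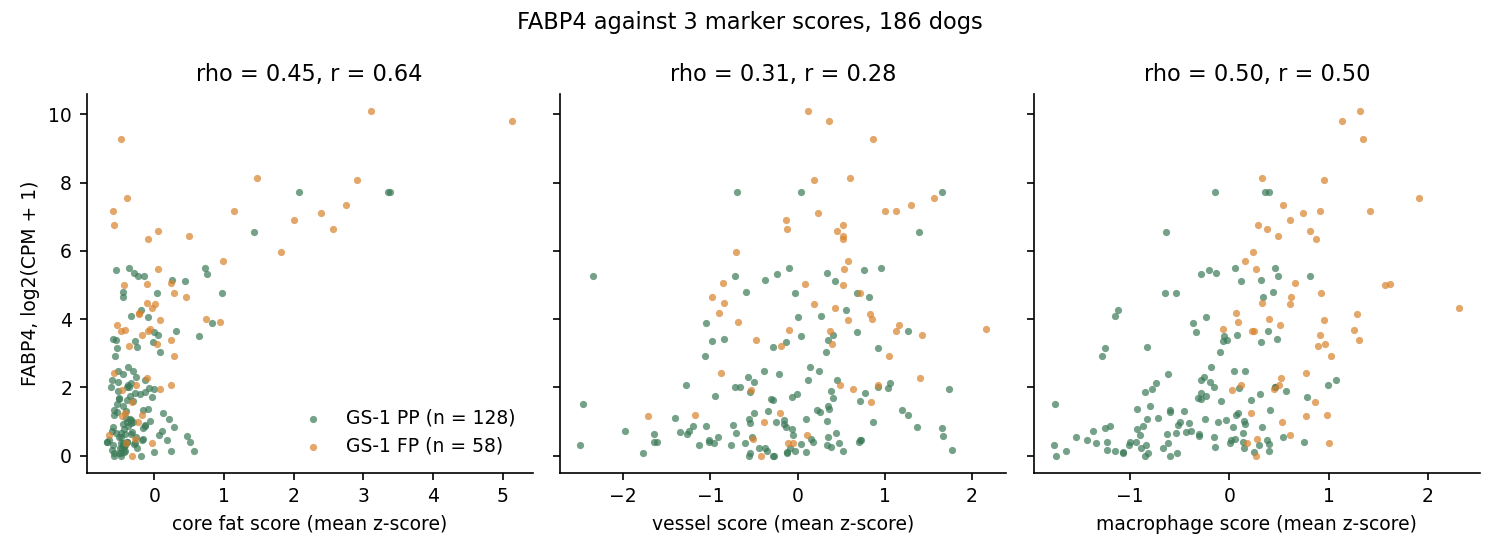
FABP4 as log2(CPM + 1) against the core fat, vessel and macrophage scores (mean z-scores of the markers) in 186 tumors, GS-1 FP in orange and GS-1 PP in green. Spearman's rho is 0.45, 0.31 and 0.50, and the FP tumors lie higher, with a median FABP4 of 4.08 against 1.29 in PP.

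The scores were then placed in 1 linear model of FABP4 with the cluster and the trial. The core fat score alone gave an r squared of 41.6%, the macrophage score alone 25.4% and the vessel score alone 8.01%, and the whole model reached 56.9%. At equal values of the others, FABP4 rose on the log2(CPM + 1) scale by 1.23 per SD of the core fat score (95% confidence interval 0.99 to 1.47), by 0.62 per SD of the macrophage score (0.32 to 0.92) and by 0.26 per SD of the vessel score (0.03 to 0.50). The difference between FP and PP was 2.42 (standard error 0.33) with the trial alone and 0.72 (95% confidence interval 0.07 to 1.36, p = 0.0297) at equal scores. It was 1.51 without the macrophage score, 1.24 without the core fat score and 0.76 without the vessel score. At equal scores it was 0.86 in COTC022 (p = 0.0840) and 0.65 in COTC021 (p = 0.144). In the 136 other libraries it was 0.87 (p = 0.0302). In the deeper 50 it was -0.07 (p = 0.907), with a 95% confidence interval of -1.33 to 1.19 that includes 0.72. Whether the remaining difference varied between the sets was not tested. FABP4 also rose with the soft connective tissue score (rho 0.47) and fell with the osteoblast score (rho -0.27), at permutation p of 1e-05 and 0.00022, adjusted to 4.37e-05 and 0.0007.

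LPL and PPARG followed other scores. LPL rose with the vessel score (rho 0.44) and the pericyte score (rho 0.41), both at an adjusted permutation p of 4.37e-05, and had a rho of 0.16 with the core fat score (adjusted permutation p = 0.0529) although r was 0.30 (adjusted p = 0.000389). Inside the trials and library groups its rho with the vessel score was 0.48, 0.40, 0.23 and 0.51, in the order used above. PPARG rose with the macrophage score (rho 0.26, adjusted permutation p = 0.000875) and the T cell score (rho 0.26, adjusted p = 0.0011), with rho of 0.19 and 0.32 between the trials for macrophages and 0.24 in FP and 0.13 in PP. With the T cell score its rho was 0.04 in FP and 0.15 in PP, and 0.08 in the deeper libraries against 0.34 among the rest. Its rho with the core fat score was 0.16 (adjusted permutation p = 0.047), and 0.06 in COTC021.

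Among the 7 genes themselves, ADIPOQ, PLIN1 and CIDEC had the highest Pearson's r, between 0.85 and 0.88 for their 3 pairs. By Spearman's rho they did not stand first throughout, at 0.52 for ADIPOQ with CIDEC, 0.44 for ADIPOQ with PLIN1 and 0.30 for PLIN1 with CIDEC, the last being 0.09 in PP. In each pair r exceeded rho. FABP4 followed ADIPOQ at r = 0.67 and rho = 0.52, CIDEC at 0.61 and 0.38 and PLIN1 at 0.58 and 0.34, all at an adjusted permutation p of 4.2e-05 for rho over the 21 pairs. LPL and PPARG, of which 1 handles lipid outside the cell and the other acts in the nucleus, had a rho of 0.16 with each other (adjusted permutation p = 0.0521).

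The genes whose levels were most like FABP4 over the 186 dogs, out of 12265 named genes that passed the filter, were CFD (rho 0.67), ABCA6 (0.66), XDH (0.64), SLC46A2 (0.62) and ABCA8 (0.59). CFD is the adipokine adipsin, ABCA6 and ABCA8 are lipid transporters of the ABC family, and XDH is xanthine dehydrogenase. Inside FP the 5 values were 0.53, 0.60, 0.34, 0.22 and 0.44 in the same order, and inside PP they were 0.55, 0.50, 0.56, 0.53 and 0.47, so XDH and SLC46A2 were less like FABP4 inside FP than over all dogs. Those most like the core fat score were DGAT2 (rho 0.47), PPP2R3A (0.44), FBN1 (0.43), PRKAR2B (0.43) and MCL1 (0.43), with MCL1 at 0.15 inside FP. DGAT2 catalyses the last step of triglyceride synthesis, PRKAR2B is a regulatory subunit of the kinase that starts lipolysis, and FBN1 encodes fibrillin-1. CFD and ABCA8 had a lower rho with the core fat score, 0.36 and 0.39, than with FABP4. CFD, SLC46A2 and ABCA8 are also in a signature that the paper derived from these dogs.

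For outcome, each gene was set against DFI and OSv by Cox regression stratified by trial, as a hazard ratio per SD of log2(CPM + 1). None of the 3 genes that passed the filter was called with DFI, where 9.75% of genes were called and 27.7% had an unadjusted p under 0.05, or with OSv, where 0.805% and 20.3% did. At an unadjusted p under 0.05 the count was also 0 of 3 for both. FABP4, the gene that differed most between the clusters, had a hazard ratio of 0.93 for DFI (95% confidence interval 0.79 to 1.09, adjusted p = 0.576) and 0.94 for OSv (0.79 to 1.12, adjusted p = 0.723). With the GS-1 cluster as a term it was 1.05 for DFI (0.87 to 1.27). LPL had 1.07 (0.91 to 1.24) and PPARG 1.00 (0.86 to 1.17) for DFI. Over the 3 genes the intervals for DFI include hazard ratios from 0.79 to 1.24, and values within those bounds were not told apart from 1 for these genes.

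The 4 core fat genes entered with a looser filter of at least 10 counts in 10 libraries, among 17168 genes of which 7.32% were called with DFI and 25.4% had an unadjusted p under 0.05. All 4 had hazard ratios under 1. For DFI it was 0.79 for PLIN1 (0.66 to 0.95, p = 0.00543, adjusted p = 0.0615), 0.84 for ADIPOQ (p = 0.032, adjusted p = 0.154), 0.85 for CIDEC (p = 0.0362, adjusted p = 0.165) and 0.92 for LEP (p = 0.354, adjusted p = 0.592). None passed after adjustment. For OSv the values were 0.84 for PLIN1 (adjusted p = 0.307), 0.89 for ADIPOQ, 0.92 for CIDEC and 0.92 for LEP, with 0 of 7 genes at an unadjusted p under 0.05, where 17.8% of all genes had one and 0.204% were called. Without dogs 0615 and 0705, PLIN1 stood at 0.82 (p = 0.017, adjusted p = 0.115), and ADIPOQ (p = 0.0879) and CIDEC (p = 0.14) lost an unadjusted p under 0.05. With the GS-1 cluster as a term in the Cox regression of DFI, 1 of 7 genes had an unadjusted p under 0.05, against 3 of 7 without it. None of the 7 was called with that term. The share of all genes with that term is not given here, so the lower count cannot be read as particular to these genes.

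PLIN1 had its lowest hazard ratios in the deeper libraries, 0.51 for DFI (0.31 to 0.86, adjusted p = 0.257) and 0.41 for OSv (0.21 to 0.80, adjusted p = 0.169), against 0.86 and 0.99 in the others. The interaction of PLIN1 with the library group had an unadjusted p of 0.0593 for DFI and 0.00568 for OSv, and an adjusted p of 0.993 and 0.624. In the trials its hazard ratio for DFI was 0.85 in COTC021 and 0.75 in COTC022. Median DFI was 68.5 days in the deeper libraries against 173 days among the rest, with a hazard ratio of 1.38 (95% confidence interval 0.90 to 2.13, p = 0.144) and hazards that were not proportional (p = 9.52e-07). Median OSv was 236 against 283 days (hazard ratio 1.38, p = 0.166). With the library group added to the strata, PLIN1 had 0.77 for DFI (adjusted p = 0.0827).

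**Figure D5:**
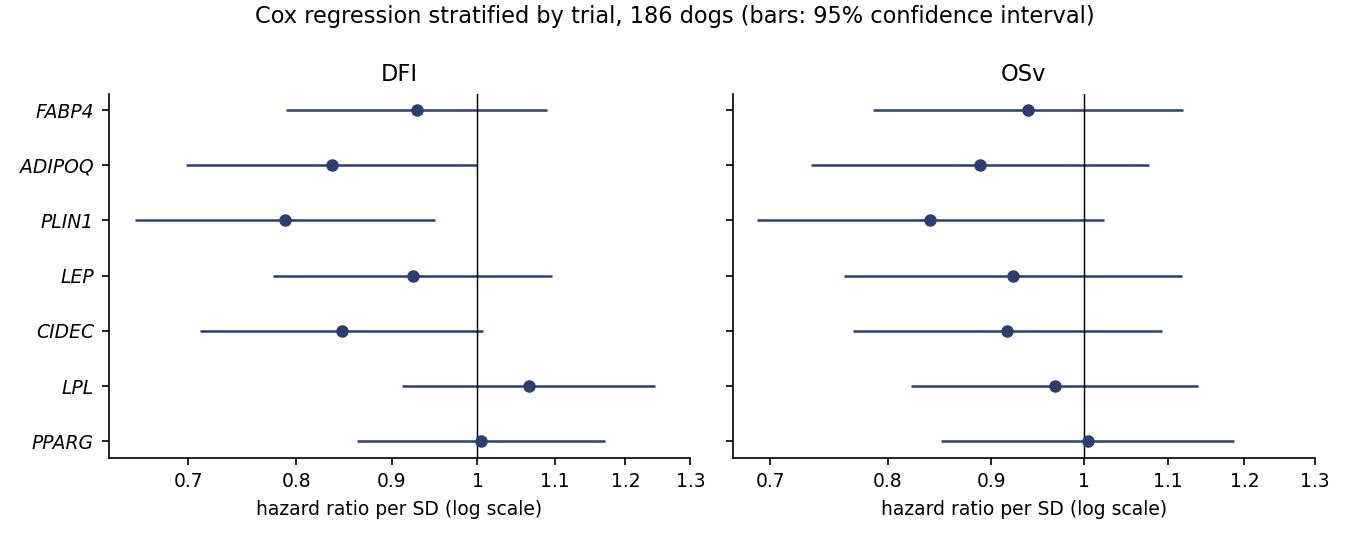
Hazard ratio per SD of log2(CPM + 1), on a log axis, for DFI and OSv in Cox regression stratified by trial over 186 dogs, with 95% confidence intervals. For DFI the interval of PLIN1, 0.66 to 0.95, lies below 1, and FABP4, LPL and PPARG span 1 in both panels. The intervals are not adjusted. For DFI 3 of 7 genes had an unadjusted p under 0.05 in the Cox regression, beside 25.4% of all genes. None of the 7 was called after adjustment in either panel.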

How the data were processed

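Libraries were made from total RNA with the TruSeq Stranded mRNA kit, trimmed with Cutadapt, mapped to GSD_1.0 with STAR 2.7.0f and quantified with RSEM 1.3.1. The authors deposited RSEM expected counts, not normalized. A read that maps to several genes is divided between them, and 3.07% of values were not whole. The values were rounded, and 186 of 198 columns were used, with the other 12 left out because they matched no sample here. Gene coordinates are those of RefSeq on the same build. No sequences of these genes were used here.

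GS-1 and GS-2 clusters, DFI and OSv were the annotation of each dog in the study's supplementary clinical tables, since the sample labels give only trial and dog. The 7 genes, the lists and the alternatives were chosen with earlier results of these data known.

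Genes were kept by edgeR's expression filter (a count of 10 as minimum, large.n set to 5 and min.prop to 0.5), normalized with TMM in edgeR 4.0.16 and fitted with limma 3.58.1 voom on cluster and trial in R 4.3.3, with Benjamini-Hochberg adjustment over all genes tested and calls under 0.05. DESeq2 1.42.0 and the quasi-likelihood test of edgeR were alternatives. Since the values are counts, limma-voom was the main test because the study's methods use it. Cox regression used survival 3.8.3, with likelihood ratio tests. Scores, permutation tests, Fisher tests and linear models were run with statsmodels 0.14.6, scipy 1.17.1, pandas 2.3.3 and numpy 2.4.6 under Python 3.11.15, and figures drawn with matplotlib 3.10.9. All tests were two-sided. On simulated counts for the GS-1 comparison of 13388 genes, limma called 92 of 100 genes changed 2-fold and 100 of 100 changed 4-fold. It also called 16 genes that were not changed.

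The 5 genes most like FABP4 and the core fat score were taken by Spearman's rho, with the 7 genes and LOC names left out, and up to 4 genes of each list were named by the smallest adjusted p. ACACA, DGAT1 and GPIHBP1 were named beyond that rule after their values were seen.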

Additional observations from a re-analysis of the deposited data

Results flagged for a closer look

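The slope of FABP4 on the T cell score (mean z-score of CD3E, CD2, CD6 and CD3D) differed between the GS-1 clusters. In a linear model with the trial, FABP4 on the log2(CPM + 1) scale changed by -0.61 per SD of the score in FP and by 0.97 in PP, a difference of -1.59 (standard error 0.45, p = 0.000519, adjusted over 35 such differences p = 0.00908). Spearman's rho was -0.34 in the 58 FP tumors and 0.30 in the 128 PP tumors, beside 0.39 over all dogs. The FP relation varied between sets, with rho of -0.55 in COTC021, -0.12 in COTC022, -0.45 in the other libraries and 0.10 in the deeper ones. In PP the rho was 0.24, 0.39, 0.26 and 0.37 in the same order. The slope difference was -1.66 in COTC022 and -1.53 in COTC021, and -1.94 in the 136 other libraries and -1.05 in the deeper 50 (p = 0.247). Both slope tests were chosen after the correlations inside the clusters were seen.

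LPL showed the same kind of difference, with a slope of -0.62 in FP and 0.28 in PP and a difference of -0.89 (standard error 0.22, adjusted p = 0.00245). Its rho was -0.46 in FP and 0.15 in PP. The slope difference was -0.95 in COTC022 and -0.89 in COTC021, and -0.97 in the 136 other libraries and -0.84 in the deeper 50 (p = 0.0511). The T cell score ran from -0.69 to 4.66 in FP and from -1.19 to 1.03 in PP, so the slopes were measured over different ranges.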

How the results depend on the processing

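Across 340 values recomputed under an alternative, 276 were labelled the same. For most tested values this meant the same direction and the same side of the threshold, including values uncalled both times. For counts of called genes it meant an equal or similar count. For the share with fat signal it meant a value inside the main interval. FABP4 between GS-1 FP and PP was called in every alternative run, with log2 fold changes from 2.39 (GS-2 clusters, no filter) to 3.80 (COTC022 alone, no filter). The 3 correlations of FABP4 held in every alternative run. Members called between the clusters, 2 of 3 beside 37.9% of all genes, became with no filter 5 of 7 in limma (21.7%), 5 of 7 in edgeR (28.3%), 4 of 7 in the other libraries (14.4%), 4 of 7 without dogs 0615 and 0705 (21.8%), 3 of 7 between GS-2 clusters (16.2%), 2 of 7 in COTC022 (10.0%), 2 of 7 in the deeper libraries (6.46%) and 1 of 7 in COTC021 (11.6%). With the filter the count was 1 of 3 in COTC021 (20.4%) and 1 of 3 in the deeper libraries (9.99%). The share with fat signal moved to 37.6%, 9.68%, 6.45% (all 4 core genes) and 58.1% (any core gene). The odds ratio of fat signal in FP lost its p under 0.05 with all 4 core genes (3.38, Fisher's exact p = 0.0513), in COTC021 (2.23), in COTC022 (3.10) and in the deeper libraries (2.30). The FABP4 difference at equal scores was 0.65 in COTC021, 0.86 in COTC022 and -0.0733 in the deeper libraries. The causes were not tested.

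Uncalled values changed sign as follows. The LPL difference between the clusters was 0.0929 in edgeR, 0.0857 in DESeq2, 0.0756 in edgeR with no filter and 0.0420 in COTC022 with no filter. For DFI, hazard ratios crossed 1 for FABP4 with the cluster as a term (1.05), LEP in the deeper libraries (1.14), LPL in COTC022 (0.97) and PPARG with library strata (0.95), in COTC022 (0.98), in the deeper libraries (0.99) and the other libraries (0.92). For OSv they crossed 1 for FABP4 with the cluster (1.05) and in COTC021 (1.01), ADIPOQ (1.04) and CIDEC (1.04) in the other libraries, LEP in COTC022 (1.01), LPL with library strata (1.01), in COTC021 (1.03), in the other libraries (1.02) and without dogs 0615 and 0705 (1.00), and PPARG with library strata (0.91), in COTC022 (0.98), in the deeper libraries (0.92) and the other libraries (0.91). No member was called with DFI, OSv or the trial under any alternative run.

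Alternatives with no filter inside subsets, the looser filter inside subsets, and the interactions were chosen after seeing the data. No paired analysis was possible because each dog gave 1 library and no dog number is shared between the trials. The core fat genes had median counts per library between 1 and 7.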

Other observations

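Among other fat genes that did not pass the filter, RETN (resistin), a hormone of fat in rodents and of leukocytes in humans, reached 10 counts in 48 tumors and had a Spearman's rho of 0.62 with FABP4 and 0.28 with the core fat score. The thermogenic gene UCP1 reached 10 counts in 52 tumors, with a highest level of 8.18 CPM and a rho of -0.14 with the core fat score, and the thermogenic receptor gene ADRB3 reached 10 counts in 0 tumors. The glycerol channel AQP7 reached 10 counts in 7 tumors and had a rho of 0.32 with the core fat score. These rho are descriptions over 186 dogs, and the genes were chosen after their values were seen.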
